A study of Mus musculus with 6 samples.

Results

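The tissue Treg and repair genes described here were Gata3, Areg, Klrg1, Rora, Pparg, Batf, Nfil3, Il17rb, Penk and Ptger4. They were taken by symbol from the count matrix, and all 10 were found among its 24421 genes. The list was chosen with earlier results of these data known, so counts over it are descriptions. RNA was sequenced from CD4+YFP+ Treg cells sorted from the spleens of female C57BL/6 mice aged 8 to 11 weeks, with 3 libraries per genotype. WT mice carried Foxp3 Cre-YFP alone, and KO mice carried Foxp3 Cre-YFP together with miR-142 fl/fl, so both groups expressed the Cre-YFP fusion from the Foxp3 locus. The deletion is therefore limited to cells that have switched on Foxp3, and the KO mice as a whole were not lacking the miRNA. The question put to these genes was whether their RNA differed between KO and WT Treg cells. WT libraries held 15493795, 24042994 and 17779518 counts (replicates 1 to 3) and KO libraries 18601425, 13883069 and 14822989 (replicates 1 to 3). Levels are given as TMM-normalized CPM, and 3 counts corresponded to 0.123 to 0.227 CPM.

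Treg cells that settle in skin, fat, lung and gut take on a program that differs from that of resting Treg cells in lymphoid organs. Its transcription factors include GATA3, BATF and, in fat, PPAR-gamma, and its cells often carry KLRG1, respond to alarmins such as IL-33 and IL-25, and secrete amphiregulin (Areg), an EGF family ligand that promotes epithelial repair. Precursors of such cells are also found in the spleen. MicroRNAs such as miR-142 lower the RNA of genes whose 3′ UTR pairs with the miRNA seed.

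The mature strands of miR-142a and their matches in the members are shown first, since they are the sequences that the deletion bears on. In the RefSeq sequences (GRCm38.p6), miR-142a-3p comes from chr11:87756903-87756925 and miR-142a-5p from chr11:87756867-87756887, both on the plus strand. Capitals mark the seed, bases 2 to 8. A second seed of the 3p strand, shifted by 1 base to bases 3 to 9, is shown on its own line.

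miR-142a-3p: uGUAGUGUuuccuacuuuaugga
miR-142a-3p, shifted seed: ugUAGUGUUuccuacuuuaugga
miR-142a-5p: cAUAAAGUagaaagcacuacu

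Sites were either the 7 bases complementary to a seed, these followed by an A (8 bases), or the last 6 of them followed by an A, where the A need not pair with the miRNA. They were searched in the longest 3′ UTR that GENCODE vM21 (GRCm38) annotates for each member. Only 2 of the 10 members held a site. Rora, with a 3′ UTR of 9285 bases, held 3 sites for the shifted seed of miR-142a-3p, all in exon 11 on the plus strand of chromosome 9, at chr9:69384655-69384662, chr9:69384992-69384998 and chr9:69386957-69386963. Gata3 held 1 site for miR-142a-5p in exon 6, at chr2:9858029-9858035 on the minus strand. The sites are printed with 8 bases on each side and the site in capitals, which in the first Rora site ends in such an A.

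Rora, the first site: attccttaAACACTAAtgcatgaa
Rora, the second site: gagcaataAACACTAttcagtcc
Rora, the third site: gctaagtaAACACTAtgacatct
Gata3: tgaggaagACTTTATtgtacctg

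The 3′ UTRs of Areg, Klrg1, Pparg, Batf, Nfil3, Il17rb, Penk and Ptger4 held no such match, and those of the 4 members called below were 776 bases (Klrg1), 489 (Il17rb), 308 (Penk) and 204 (Pparg) long. Among the 11129 tested genes with an annotated 3′ UTR, whose median length was 1185 bases, 12.1% held a site for the 3p seed, 15.4% for the shifted seed, 23.5% for the 5p seed and 37.4% for any of them. A match is a description of the sequence, and pairing in these cells was not tested.

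The labels were checked against the targeted locus and the sort. Mir142b, annotated on the strand opposite to Mir142, stood at 9.05, 4.14 and 5.81 CPM in WT replicates 1, 2 and 3, and at 0.389, 0.379 and 0.342 CPM in the KO libraries. Every KO library was far below every WT library, as the genotypes call for. Counting ignored strand, so reads of Mir142 and Mir142b cannot be told apart. Bzrap1, which lies next to Mir142 and was named after its values were seen, had 40.3 to 79.8 CPM in WT and 21338 to 25543 CPM in KO libraries, and the cause was not tested. All 8 genes of the CD4+ T and Treg cell list, Foxp3, Cd4 and Il2ra among them, exceeded 1 CPM in all 6 libraries. Foxp3 lay between 536 and 595 CPM in WT and between 642 and 749 CPM in KO, with a log2 fold change of 0.28 (SE 0.10) and an edgeR adjusted p of 0.083, so it was not called at 0.05. Il2ra, the most abundant gene of that list over all 6 libraries though not within WT, lay between 726 and 799 CPM in WT and between 2258 and 3073 CPM in KO. It was the only gene of the list that was called, with a log2 fold change of 1.77 (SE 0.14, QLF FDR = 0.00088).

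KO replicate 1 stood apart from the other libraries in markers of cells that the sort on CD4 and YFP should leave out. The 11 monocyte and macrophage genes summed to 2775 CPM there, against 75.0 and 16.4 CPM in KO replicates 2 and 3 and 3.39 to 4.65 CPM in WT, and all 11 exceeded 1 CPM in KO replicate 1, against 9 and 2 in the other KO libraries and 1 in each WT library. Csf1r, the most abundant of them over all 6 libraries because of KO replicate 1, was at 640 CPM there, at 12.6 and 0.890 CPM in KO replicates 2 and 3, and at 0.830 CPM or less in WT. Vcam1, named after its values were seen, was the highest of the list in every other library, with 35.1 and 11.2 CPM in KO replicates 2 and 3 and 1.60 to 2.28 CPM in WT. KO replicates 2 and 3 thus also exceeded WT in this list, far less than KO replicate 1 did. The 11 neutrophil genes in the matrix, led by S100a9, summed to 960, 1.67 and 9.38 CPM in KO replicates 1, 2 and 3. In WT they summed to 0.221 to 0.493 CPM, with 0 of them above 1 CPM in any WT library. Ly6g, another listed neutrophil gene, was not analysed here.

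In the lists that follow, the leading gene is the most abundant over the 6 libraries together, which in several lists rests on KO replicate 1. The 8 B cell genes, led by Cd22, summed to 290 CPM in KO replicate 1, 9.09 and 13.1 CPM in the other KO libraries and 30.2 to 41.3 CPM in WT. The 6 dendritic cell genes, led by Itgax, summed to 146 CPM in KO replicate 1 and to at most 1.22 CPM elsewhere. Basophil and mast cell genes (7, led by Hdc) summed to 16.1, 1.51 and 6.98 CPM in KO and 1.27 to 1.54 CPM in WT, and the 7 CD8 T and NK cell genes, led by Eomes, to 96.4, 60.4 and 51.1 CPM in KO and 26.6 to 29.8 CPM in WT. In KO replicates 2 and 3 the excess of the latter list was mainly Eomes (42.0 and 29.8 CPM, against 4.35 to 6.69 CPM in WT), and another of its genes was called lower. Cd8a, named after its values were seen, had 1.97 and 0.684 CPM in KO replicates 2 and 3, against 0.185 to 0.553 CPM in WT. The 9 erythroid genes, led by Slc4a1, summed to 41.2, 15.6 and 4.38 CPM in KO and at most 1.27 CPM in WT, and all 5 globin genes among them were at 0 counts in every library. Group 2 innate lymphoid cells share Gata3, Rora, Klrg1, Il17rb and Areg with tissue Treg cells. Their 5 other genes summed to 31.9, 31.2 and 39.4 CPM in KO and to 41.2, 22.8 and 35.9 CPM in WT, nearly all of it Il9r, and 3, 2 and 2 of them exceeded 1 CPM in KO against 1 in each WT library. Of the 2 that were tested, Nmur1, named after its values were seen, had 0.164 to 0.332 CPM in WT and 1.94, 2.27 and 2.94 CPM in KO. Nmur1 passed the filter only through the KO libraries and fell below it without KO replicate 1. Its call as higher is therefore not read as a result. What RNA of these or other cells adds to the members was not tested. Apart from the globins, no marker of these lists of other cells was at 0 in all 6 libraries. Results on members are therefore given with and without KO replicate 1.

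**Figure D1:**
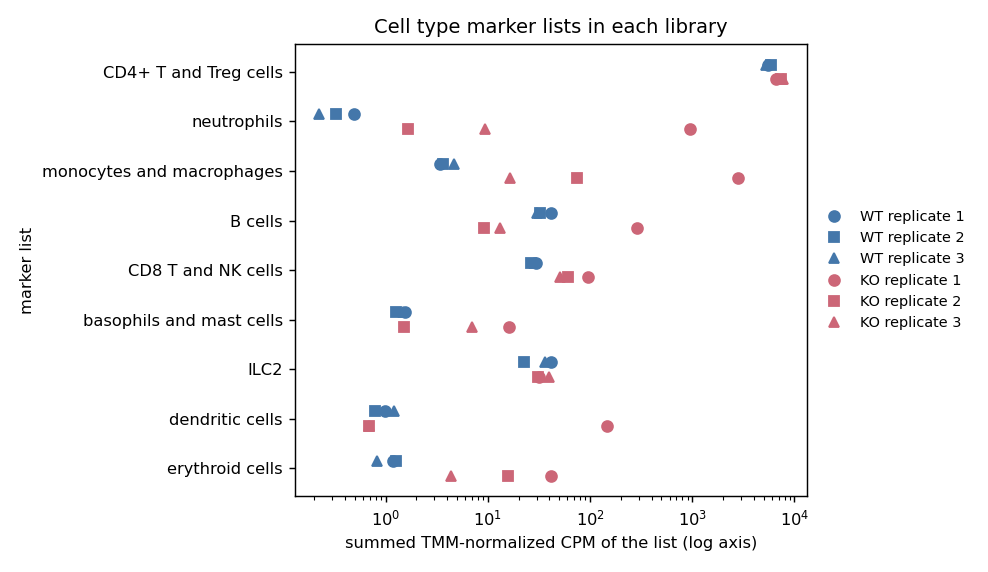
Summed TMM-normalized CPM (log axis) of each cell type marker list, with 1 point per library (blue, WT; red, KO; symbols, replicates 1 to 3). KO replicate 1 reaches 2775 CPM for monocyte and macrophage genes and 960 CPM for neutrophil genes, while the Treg list lies between 5257 and 7788 CPM in all libraries.

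Of the 10 members, 4 were called higher in KO Treg cells and 0 lower at an FDR under 0.05 in edgeR's quasi-likelihood F (QLF) test over all 11658 genes tested. Those called were Klrg1, Penk, Pparg and Il17rb, and their fitted differences ranged from 2.32-fold to 6.71-fold. In the same test 18.8% of all tested genes were called, 11.6% higher and 7.27% lower. These same 4 genes were the members in which all KO libraries exceeded all WT libraries, a pattern found in 22.2% of all tested genes. The other 6 members, Gata3, Rora, Batf, Nfil3, Areg and Ptger4, had overlapping groups, and at an unadjusted p under 0.05 the count of members was still 4. All 10 passed the expression filter, Pparg only with its KO libraries counted, since its WT replicate 2 was below 1 CPM. The median log2 fold change was 0.18 over the members and 0.02 over all tested genes. Without KO replicate 1 the same number, 4, was called higher and the median was 0.23. The members were thus split between a few genes with large differences and a majority without a detectable one.

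**Figure D2:**
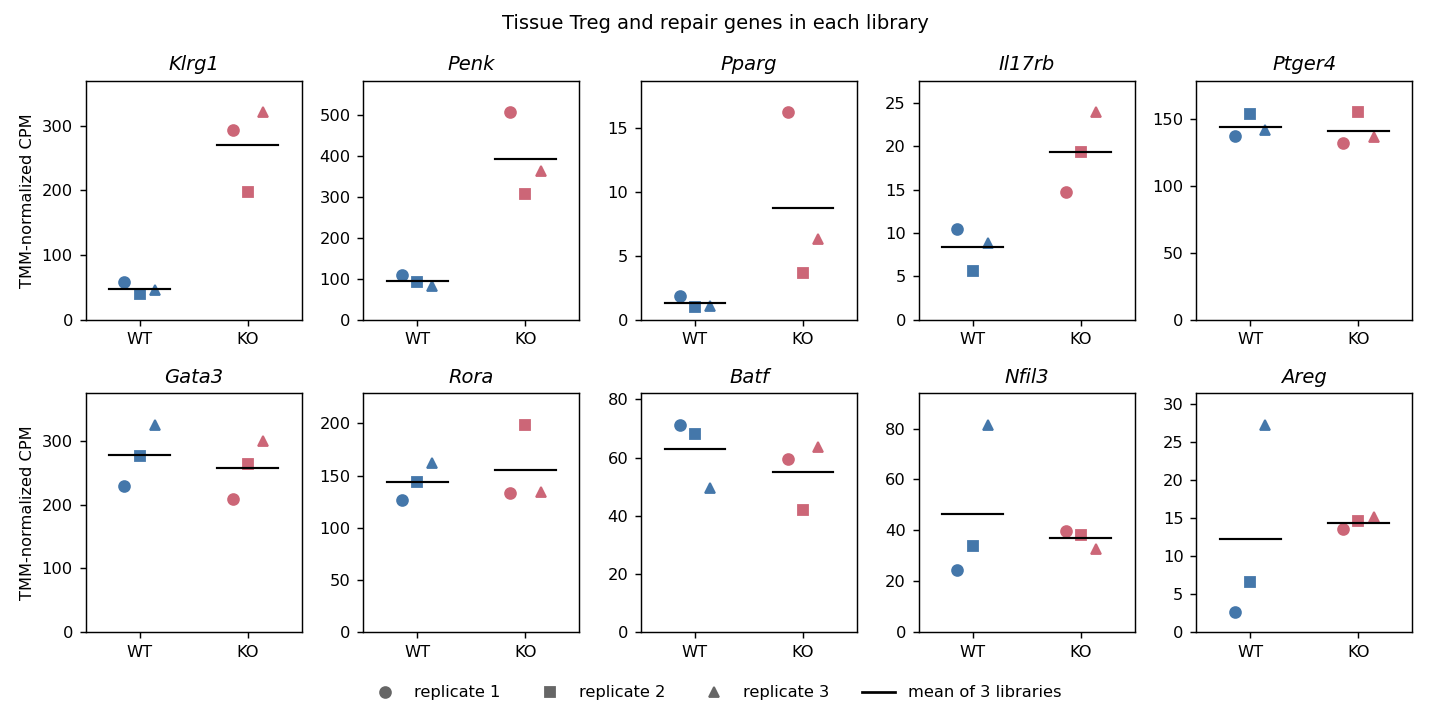
TMM-normalized CPM of each member in each library (blue, WT; red, KO; symbols, replicates 1 to 3; line, mean of 3), with a linear axis from 0 of its own per gene. In Klrg1, Penk, Pparg and Il17rb all KO points lie above all WT points, while in the other members the groups overlap and Areg and Nfil3 spread widely in WT.

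**Figure D3:**
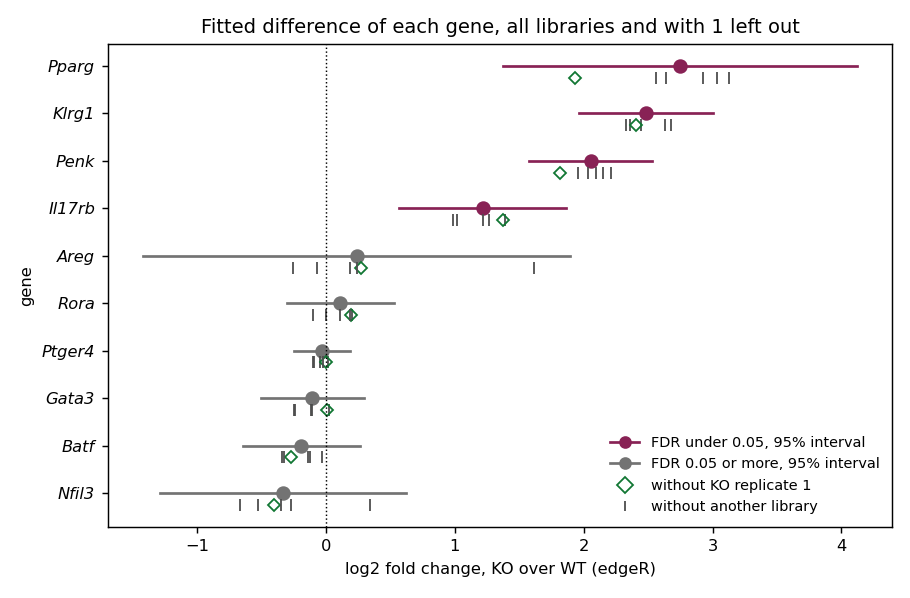
Log2 fold change, KO over WT, of each member from edgeR, with its 95% interval (purple, FDR under 0.05; gray, not). Below each, a diamond gives the value without KO replicate 1 and ticks the values without each other library, which for Pparg fall to 1.93 without KO replicate 1.

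Among the surface receptors, Klrg1 encodes an inhibitory lectin-like receptor for cadherins that marks terminally differentiated and tissue Treg cells. It had 59.1, 40.0 and 46.0 CPM in WT replicates 1, 2 and 3, and 294, 197 and 321 CPM in the KO libraries. The KO libraries were all several times above the WT libraries, and KO replicate 1 was not the highest of them. Klrg1 had a log2 fold change of 2.49 (SE 0.22, edgeR QLF FDR = 0.0011), 5.60-fold, with all 3 KO libraries on that side (exact two-sided permutation test, p = 0.1, the smallest that 3 against 3 libraries can give). Without KO replicate 1 it was 2.41 (FDR = 0.00051). In bulk samples such as these, more cells that express Klrg1 and more Klrg1 RNA per cell cannot be told apart, nor can fewer cells and less RNA per cell for a lower value, and this holds for every gene below.

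Il17rb encodes the subunit that lets the IL-25 receptor bind its ligand, and pairs with IL-17RA. It had 10.5, 5.62 and 8.91 CPM in WT replicates 1, 2 and 3, and 14.7, 19.4 and 24.0 CPM in the KO libraries. The groups did not overlap, but the gap was narrow, with KO replicate 1 the lowest KO library and WT replicate 1 the highest WT library. This gave a log2 fold change of 1.22 (95% CI 0.57 to 1.86, QLF FDR = 0.0246), 2.32-fold (exact two-sided permutation test, p = 0.1). The call was lost without WT replicate 2 (0.99, FDR = 0.0738), without WT replicate 3 (1.26, FDR = 0.0789) and without KO replicate 3 (1.02, FDR = 0.0676), while without KO replicate 1 it was 1.37 (FDR = 0.0097). Il17rb shares 141 of its 3707 exon bases with Actr8 on the opposite strand, and reads there cannot be told apart because strand was not used in counting.

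The other receptors and adaptors for the alarmins IL-25, IL-33, IL-18 and TSLP made a list of 12 genes, all tested. Il1rl1, the IL-33 receptor gene, was called higher and Traf3ip2, the adaptor gene that relays IL-17RB and IL-17RA signals, lower, and the median log2 fold change was 0.18. Without KO replicate 1 the list had 1 gene called higher, 0 lower and a median of 0.04. Il1rl1 had 90.1, 82.4 and 61.1 CPM in WT and 139, 167 and 394 CPM in KO replicates 1, 2 and 3, a log2 fold change of 1.58 (SE 0.39, QLF FDR = 0.0322). Its KO libraries all lay above WT, with replicate 3 well above the other KO libraries. The call of Il1rl1 was lost without any 1 of the WT libraries (1.43 to 1.67, FDR 0.0858 to 0.114), and without KO replicate 3 the value was 0.96 (FDR = 0.0254). It was also lost with robust estimation (1.58, FDR = 0.0647) and with the replicate number as a block (1.43, FDR = 0.0576). Traf3ip2, with a log2 fold change of -0.52 (SE 0.15, QLF FDR = 0.0468), lost its call in 5 of 6 leave-one-out fits, all but that without KO replicate 2 (FDR 0.0696 to 0.151), with no filter (FDR = 0.0551) and with the block (FDR = 0.0877).

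Ptger4 encodes EP4, a prostaglandin E2 receptor that signals through cAMP. It had 137, 154 and 142 CPM in WT replicates 1, 2 and 3, and 132, 155 and 136 CPM in the KO libraries. These were the most even values of any member, and the groups overlapped throughout. The log2 fold change was -0.03 (95% CI -0.25 to 0.19, QLF FDR = 0.836), an interval narrower than that of any other member. Ptger4 shares 1015 of its 6648 exon bases with a pseudogene on the opposite strand and 82 with Ttc33. Among 16 other prostanoid genes, 10 were tested, 2 called higher and 1 called lower, and their median was 0.64 (0.06 over 9 genes without KO replicate 1). The lower gene was Ptger2, which encodes EP2, the other Gs-coupled receptor for the same ligand. Ptger2 had 77.7, 61.8 and 65.2 CPM in WT and 24.4, 28.3 and 26.1 CPM in KO libraries, a log2 fold change of -1.38 (SE 0.12, QLF FDR = 0.0010). All KO libraries of Ptger2 were below all WT libraries, whereas those of Ptger4 were not. Whether the difference of Ptger2 exceeds that of Ptger4 was not tested. The higher genes were Ptgir, the prostacyclin receptor gene (log2 fold change 1.25, SE 0.19), and Slco2a1, a prostaglandin transporter gene (2.24, SE 0.56). Slco2a1 had 1.17, 0.574 and 0.885 CPM in WT and 7.44, 2.04 and 2.67 CPM in KO replicates 1, 2 and 3. It thus reached the filter only through the KO libraries, so its call is not read as a result. Its value was 1.45 without KO replicate 1, and its call was lost without any 1 of the WT libraries (FDR 0.076 to 0.131).

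Of the secreted products, Penk encodes proenkephalin, the precursor of the enkephalin opioid peptides. It had 109.6, 91.8 and 81.7 CPM in WT replicates 1, 2 and 3, and 506, 308 and 363 CPM in the KO libraries. All KO libraries were well above all WT libraries, and KO replicate 1 was the highest. Its log2 fold change was 2.06 (SE 0.20, QLF FDR = 0.0015), 4.16-fold (exact two-sided permutation test, p = 0.1), and 1.81 (SE 0.14, FDR = 0.00022) without KO replicate 1. Penk shares 233 of its 1634 exon bases with A830012C17Rik on the opposite strand.

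Of the 11 other opioid genes (precursors, processing enzymes and receptors), 2 passed the filter. Cpe, which encodes carboxypeptidase E, an enzyme that trims peptides cut from precursors such as proenkephalin, was called higher. It had 2.83, 1.31 and 1.66 CPM in WT and 7.94, 8.25 and 8.55 CPM in KO libraries, a log2 fold change of 2.10 (SE 0.31, QLF FDR = 0.0054). The KO libraries of Cpe were close together and all above WT. The other tested gene encodes an enzyme that cuts precursors and was not called. All other precursor and receptor genes fell below the filter, and 3 of the 11 genes were at 0 counts in every library.

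Areg had 2.71, 6.56 and 27.3 CPM in WT replicates 1, 2 and 3, and 13.5, 14.5 and 15.1 CPM in the KO libraries. The KO libraries were nearly equal, and all 3 lay inside a WT range of 10.1-fold between the lowest and the highest library. For Areg the log2 fold change was 0.24 (95% CI -1.42 to 1.90, QLF FDR = 0.836), so changes of 2-fold in either direction lay inside the interval. Without WT replicate 3 the log2 fold change was 1.62 (FDR = 0.058), and without WT replicate 1 it was -0.25 (FDR = 0.784).

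Other EGF family ligands, their receptors and sheddases, and further secreted repair factors made a list of 26 genes, of which 16 were tested, 4 called higher and 0 lower, with a median log2 fold change of 0.38 (0.21 and 3 called higher without KO replicate 1). Hbegf, another EGF receptor ligand, had 1.66, 1.35 and 3.26 CPM in WT and 9.44, 7.42 and 7.80 CPM in KO libraries, a log2 fold change of 1.98 (SE 0.35, QLF FDR = 0.0106). Unlike Areg, Hbegf had every KO library above every WT library. Pdgfb, a platelet-derived growth factor gene, had 1.60, 1.68 and 2.10 CPM in WT and 40.8, 13.7 and 16.3 CPM in KO libraries, with a log2 fold change of 3.72 (SE 0.46, QLF FDR = 0.0032) and of 3.04 without KO replicate 1. Osm, the oncostatin M gene, had a log2 fold change of 0.86 (SE 0.17, QLF FDR = 0.0141), a call lost without WT replicate 2 or WT replicate 3 (FDR = 0.0683 and 0.0626).

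Among the transcription factors, only Pparg was called. It encodes PPAR-gamma, a nuclear receptor for fatty acids that Treg cells of visceral fat depend on and that macrophages also express. Pparg had 1.85, 0.984 and 1.11 CPM in WT replicates 1, 2 and 3, from 30, 24 and 20 counts, and 16.2, 3.63 and 6.30 CPM in the KO libraries, from 292, 48 and 92 counts. KO replicate 1, the library rich in macrophage markers, was the highest, and the other KO libraries were also above all WT libraries. For Pparg the log2 fold change was 2.75 (95% CI 1.37 to 4.12, QLF FDR = 0.0199), 6.71-fold (exact two-sided permutation test, p = 0.1). Without KO replicate 1 it was 1.93 (SE 0.37, FDR = 0.0111), so the difference was smaller and still called. How much of the Pparg RNA came from macrophages was not tested. The call was lost without WT replicate 1 (3.03, FDR = 0.0535), WT replicate 2 (2.56, FDR = 0.0925) or WT replicate 3 (2.64, FDR = 0.0820). With WT replicate 2 below 1 CPM, Pparg reached the filter only with the KO libraries, the group where it was high. Its call carries that limit. In the fit with no filter the log2 fold change of Pparg was 2.71 (QLF FDR = 0.0279).

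Of 22 partners of PPAR-gamma and lipid genes, 16 were tested, 9 called higher and 0 lower. The median log2 fold change was 0.98, the same when 1 gene with at most 3 counts in each WT library is set at its bound. That gene is among the 9 called but passed the filter only through the KO libraries, so its call is not read as a result. Without KO replicate 1, 8 of 15 tested were called higher and the median was 0.69. Abca1, a cholesterol exporter gene, had 27.0, 25.1 and 28.8 CPM in WT and 91.4, 77.3 and 78.8 CPM in KO libraries, a log2 fold change of 1.61 (SE 0.11, QLF FDR = 0.00053). KO replicate 1 was close to the other KO libraries in Abca1, and all were above WT. Abcg1, a second cholesterol exporter gene (log2 fold change 0.76, SE 0.11), and Scd2, a fatty acid desaturase gene (1.02, SE 0.17), were called with any 1 library left out, as was Abca1.

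Gata3, the transcription factor of type 2 immunity, had 229, 276 and 326 CPM in WT replicates 1, 2 and 3, and 209, 264 and 299 CPM in the KO libraries. The groups overlapped almost fully. Gata3 had a log2 fold change of -0.11 (95% CI -0.50 to 0.29, QLF FDR = 0.700). Changes of 2-fold in either direction lay outside the interval. Its exons overlap those of 9230102O04Rik over 77 bases on the same strand and of an antisense gene over 155 bases.

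Of 8 type 2 cytokine genes and genes of their signalling, 5 were tested and 2 called higher, with a median log2 fold change of 0.39 (3 and 0.43 without KO replicate 1). Il4, a target of GATA3, had 1.79, 1.97 and 1.94 CPM in WT and 5.99, 4.24 and 4.65 CPM in KO libraries, a log2 fold change of 1.39 (SE 0.23, QLF FDR = 0.0083). The KO values of Il4 were all above WT, though both groups were low. Il4ra had a log2 fold change of 0.43 (SE 0.09, QLF FDR = 0.0159), a call lost without any 1 of the WT libraries or KO replicate 3 (FDR 0.055 to 0.0836). Il9 was at 0 counts in all libraries, and Il5, Il9 and Il13 fell below the filter.

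Batf encodes a bZIP factor that pairs with JUN proteins and IRF4 and is needed for tissue Treg cells. It lay between 49.6 and 71.4 CPM in WT and between 42.1 and 63.6 CPM in KO libraries. The log2 fold change was -0.19 (95% CI -0.65 to 0.26, QLF FDR = 0.522), and the groups overlapped. Irf4, its partner gene, lay between 98.0 and 150 CPM in WT and between 97.8 and 115 CPM in KO libraries, with a log2 fold change of -0.13 (95% CI -0.52 to 0.27, QLF FDR = 0.633).

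Over the 16 partner and related factors of BATF and GATA3, 14 were tested, 3 called higher and 2 lower, with a median log2 fold change of 0.12 (0.05 without KO replicate 1). Runx3, a factor of tissue-resident T cells, had 74.4, 68.2 and 88.7 CPM in WT and 184, 148 and 151 CPM in KO libraries, a log2 fold change of 1.06 (SE 0.13, QLF FDR = 0.0032), and was called with any 1 library left out. Id2, an inhibitor of E proteins, had a log2 fold change of 1.40 (SE 0.26), a call lost without WT replicate 1 or WT replicate 2 (FDR = 0.0552 and 0.0504). Prdm1, the gene of BLIMP-1, had 1.13 (SE 0.27), a call lost without any 1 of the WT libraries (FDR 0.0558 to 0.105). Cbfb, the shared partner of RUNX proteins, and Runx1 were called lower, with log2 fold changes of -0.43 and -0.39 (SE 0.11 for each), and lost the call in 5 and 4 of 6 leave-one-out fits (highest FDR 0.129 and 0.160) and with the block (FDR = 0.0675 and 0.0724).

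Rora encodes ROR-alpha, a nuclear receptor of skin Treg cells and of the clock, and was the member with 3 seed sites. It had 126, 144 and 162 CPM in WT replicates 1, 2 and 3, and 133, 199 and 135 CPM in the KO libraries. The KO libraries lay within the WT range except replicate 2, which was the highest of all. The log2 fold change was 0.11 (95% CI -0.31 to 0.52, QLF FDR = 0.700), and it was -0.10 without KO replicate 2 (FDR = 0.555). Rora shares 82 of its 13071 exon bases with an antisense gene on the opposite strand. The members with a seed site, Rora and Gata3, were thus not among those called, and the 4 called members held none. Of all tested genes with an annotated 3′ UTR, 37.4% held a site. Whether called genes hold sites more or less often was not tested, and shorter matches were not searched.

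Nfil3, the gene of a bZIP repressor that binds the sites of clock-controlled activators, had 24.4, 33.7 and 81.6 CPM in WT replicates 1, 2 and 3, and 39.9, 38.2 and 32.8 CPM in the KO libraries. As with Areg, the KO libraries were close together inside a wide WT range, with WT replicate 1 lowest and WT replicate 3 highest. The log2 fold change was -0.33 (95% CI -1.29 to 0.62, QLF FDR = 0.605). It was 0.34 without WT replicate 3 (FDR = 0.288) and -0.66 without WT replicate 1. Of 12 genes of the circadian clock and its output, all were tested and 0 called in the QLF test, with a median log2 fold change of 0.10. Without KO replicate 1, 1 of them was called higher and the median was 0.16.

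The spread of Areg and Nfil3 among WT libraries was unusual. Their highest WT library was 10.1-fold (Areg) and 3.35-fold (Nfil3) above the lowest, against 1.12-fold and 1.22-fold among the KO libraries. Of the 11658 tested genes, 43 (0.369%) had a WT range at least as large as that of Areg and 137 (1.18%) at least as large as that of Nfil3. The median over all tested genes was 1.18-fold in WT and 1.30-fold in KO.

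Some companion genes, picked here after their values were seen, showed the same lowest and highest WT library as Areg and Nfil3. Junb, a partner of BATF, had 476, 1470.1 and 3080.3 CPM in WT replicates 1, 2 and 3, and 845, 1401 and 1104 CPM in KO. Fosl2, another AP-1 gene, had 10.8, 12.6 and 102.7 CPM in WT and 27.1, 11.3 and 9.24 CPM in KO. Bhlhe40 ranged over 5.60-fold and Per1 over 3.81-fold in WT, against 1.60-fold and 2.05-fold in KO. In all of them WT replicate 3 was the highest and WT replicate 1 the lowest WT library. Gata3 and Rora had the same lowest and highest WT library within ranges of 1.42-fold and 1.28-fold, while Batf had them the other way round. What these genes share in the WT libraries was not tested.

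**Figure D4:**
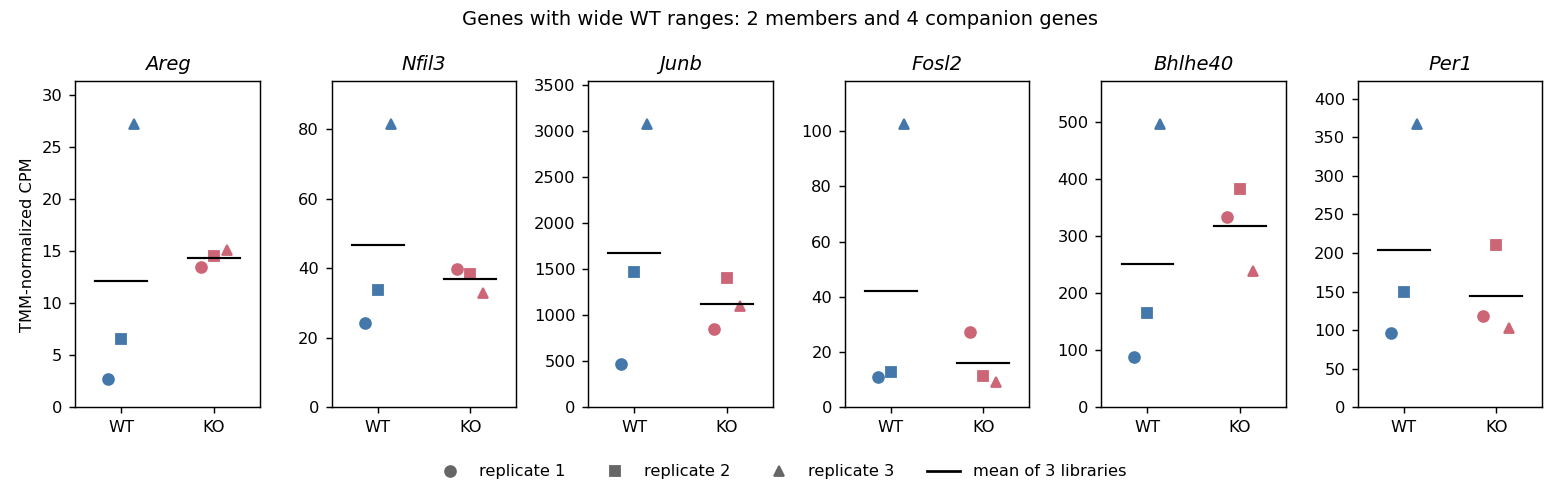
TMM-normalized CPM in each library (blue, WT; red, KO; symbols, replicates 1 to 3; line, mean of 3) of Areg, Nfil3 and 4 companion genes picked after their values were seen, each on its own linear axis from 0. WT replicate 3 is the highest and WT replicate 1 the lowest WT library in each panel, and Areg spans 2.71 to 27.3 CPM in WT.

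Levels were compared between members per length, as CPM per kilobase of annotated exon (RPKM). In WT the order of mean levels was Gata3 (69.7 ± 12.1, SD, n = 3), Penk (57.7 ± 8.65), Batf (44.8 ± 8.32), Klrg1 (34.2 ± 6.92), Nfil3 (23.0 ± 15.2), Ptger4 (21.7 ± 1.27), Rora (11.02 ± 1.36), Areg (10.03 ± 10.9), Il17rb (2.25 ± 0.676) and Pparg (0.445 ± 0.158). Neighbours in this order overlapped between libraries except Ptger4 and Rora, and Il17rb and Pparg. In KO, Penk (240.0 ± 62.7) and Klrg1 (191 ± 45.9) came first and overlapped each other, and both lay above Gata3 (64.8 ± 11.4) in every KO library. The last places were kept by Il17rb (5.22 ± 1.25) and Pparg (2.95 ± 2.24), which overlapped in KO. In mean level Klrg1 was thus below Gata3 and Batf in WT and above both in KO, and Penk, already above Batf in WT, was above Gata3 only in KO. Pparg had the lowest mean in both genotypes.

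The members lie on 9 chromosomes, with Klrg1 and Pparg both on chromosome 6. The RefSeq table (GRCm38.p6) held 10 promoters, from 250 bases before to 50 bases after a start, for 8 members, all but Klrg1 and Penk. They were searched on both strands for 6 motifs, TGANTCA (AP-1), TGACGTCA (the cAMP response element), TGCGTCA (another bZIP motif), TTANGTAA (NFIL3), AGATAA (for GATA factors) and AGGTCA (nuclear receptors such as ROR-alpha). TGACGTCA was found in Areg alone, 61 bases before the start, and is present in 1.79% of 32851 promoters. TGANTCA was found in Il17rb alone (7.81% of all promoters), AGATAA in Batf alone (11.2%), and AGGTCA in Nfil3 and in 2 promoters of Pparg (16.3%). TGCGTCA (2.12%) and TTANGTAA (2.32%) were in none of the members' promoters. TGACGTCA and TGANTCA read the same on both strands, so each was counted at 1 position. A match describes letters, not binding. The windows of the called members and of Areg, the member with the widest WT range, are printed with the motif in capitals. They lie at chr5:91139527-91139556 (plus strand) for Areg, chr14:30008983-30009011 (minus strand) for Il17rb, and chr6:115361105-115361132 and chr6:115362329-115362356 (plus strand) for Pparg.

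Areg: gggctggtccgTGACGTCAcgggcggtggc
Il17rb: cctcccgggccTGAGTCAttcgcaccccg
Pparg, the first start: gccgccgcctcAGGTCAgagtcgccccg
Pparg, the second start: gggacgcgaggAGGTCAagaaggggcct

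Beyond the genes that share a pathway with a member, 30 other genes known to be high in tissue or effector Treg cells were examined. Of 29 tested, 12 were called higher and 1 lower, with a median log2 fold change of 0.60, and without KO replicate 1 these were 12, 3 and 0.33. Itgae, the gene of CD103, had 133, 127 and 102 CPM in WT and 597, 479 and 558 CPM in KO libraries, a log2 fold change of 2.18 (SE 0.14, QLF FDR = 0.00051). Like Klrg1, Itgae had all KO libraries several times above WT. Fgl2, the gene of a secreted suppressive protein, had a log2 fold change of 2.57 (SE 0.39), which was 2.03 without KO replicate 1, and Tnfrsf9 had 0.99 (SE 0.12). The lower gene was Ccr4, a skin and tissue homing receptor gene, with 86.2, 69.2 and 68.1 CPM in WT and 38.6, 27.9 and 43.9 CPM in KO libraries, a log2 fold change of -1.02 (SE 0.18, QLF FDR = 0.0108).

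Among 12 genes of naive-like Treg cells of lymphoid organs, all tested, 2 were called higher and 0 lower, with a median log2 fold change of -0.05 (4 higher and a median of 0.13 without KO replicate 1). Igfbp4 (log2 fold change 1.06, SE 0.21) and Satb1 (0.74, SE 0.18) were the genes called, and both calls were lost without any 1 of the WT libraries (FDR 0.0631 to 0.0698 for Igfbp4 and 0.0701 to 0.109 for Satb1). Over all 10 companion lists, 128 of 165 genes were tested, 36 called higher and 5 lower, and without KO replicate 1 the counts were 38 and 5 of 125. The number called higher fell to 19, 15 and 18 without WT replicates 1, 2 and 3. Over all tested genes 1350 were called higher and 847 lower, and with library size alone as the scaling the split was 1064 higher and 1201 lower, under which the same 4 members were called.

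**Figure D5:**
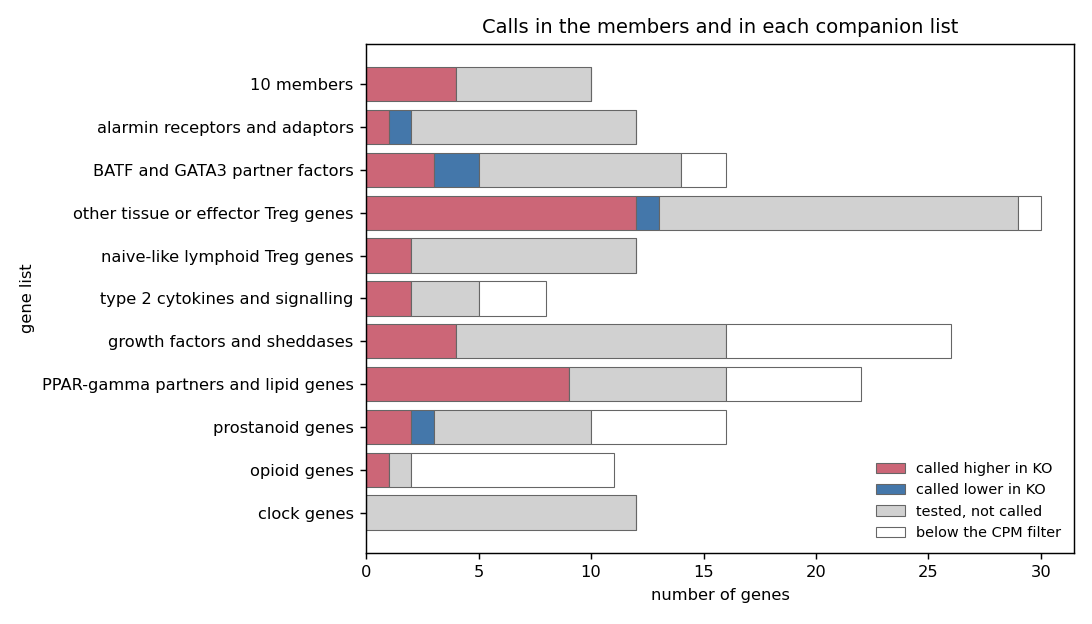
Number of genes (horizontal axis) called higher (red) or lower (blue) in KO at FDR below 0.05, tested and not called (gray), or below the CPM filter (white), for the 10 members and each companion list. The members have 4 higher and 0 lower, and the longest red bars are the 12 of other tissue or effector Treg genes and the 9 of PPAR-gamma partners and lipid genes.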

How the data were processed

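The authors mapped 51-base single-end reads to mm10 with HISAT, counted them per gene without regard to strand, and deposited whole-number counts, not normalized, which were used as deposited in all 6 columns. The filter kept genes above 1 CPM in 3 libraries or more. The test was that of edgeR 4.0.16 in R 4.3.3: TMM normalization on recomputed library sizes, quasi-likelihood F test without robust estimation, FDR threshold 0.05 over all genes tested. SE is the log2 fold change divided by the square root of F. Permutation tests used log2 of CPM plus 0.5. The steps were tested on simulated counts. Alternatives included DESeq2 1.42.0, other scalings and filters, and each library left out. Named were all members, in each companion list up to 3 called genes per direction with the smallest p, Il1rl1, Irf4, Mir142b, Foxp3 and each marker list's most abundant gene over the 6 libraries. Junb, Fosl2, Bhlhe40, Per1, Vcam1, Nmur1, Cd8a and Bzrap1 were named outside this rule, after their values were seen. The members and lists were chosen with earlier results of these data known, so counts over them are descriptions. Positions, exon lengths and 3′ UTRs came from GENCODE vM21 (GRCm38).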

Additional observations from a re-analysis of the deposited data

How the results depend on the processing

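Klrg1 and Penk were called in every alternative. Pparg and Il17rb were called in all but the stricter FDR of 0.01, which left 2 members called, and the fits without a library named in the report. With 1 library left out, members called higher ranged from 2 to 4 and lower was 0, genes called higher ranged from 483 to 1403 and lower from 208 to 937, and companion genes higher from 15 to 38 and lower from 2 to 12, with fewer libraries part of how these fits are built. The log2 fold changes of members ranged over these fits from 2.33 to 2.68 (Klrg1), 1.81 to 2.21 (Penk), 1.93 to 3.13 (Pparg), 0.99 to 1.39 (Il17rb), -0.25 to 0.02 (Gata3), -0.25 to 1.62 (Areg), -0.10 to 0.20 (Rora), -0.34 to -0.03 (Batf), -0.66 to 0.34 (Nfil3) and -0.10 to 0.01 (Ptger4).

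Members that were not called turned direction without WT replicate 3 (Gata3 0.0228, Nfil3 0.341), KO replicate 1 (Gata3 0.00757), WT replicate 1 (Areg -0.253, Rora -0.0029), WT replicate 2 (Areg -0.0664, Ptger4 0.0132) and KO replicate 2 (Rora -0.101), and so did Irf4 (0.083 without WT replicate 3, in a range of -0.27 to 0.08). The cause was not tested. Under other settings of the fit, all 80 values of members kept direction and call. Among members not called, values moved by more than 1.5 times with the replicate block (Areg 0.826, Nfil3 -0.137), library size alone (Ptger4 -0.110, Rora 0.0295, Gata3 -0.181), no filter (Ptger4 -0.0527) and DESeq2 (Ptger4 -0.0547).

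At an FDR of 0.01, 490 genes were higher and 196 lower, and 14 and 1 companion genes. Companion genes lower were 3 with no filter and 8 with DESeq2. DESeq2 called 1803 genes higher and 1238 lower, and also called Foxp3 (0.26, FDR = 0.037).

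With the replicate block, 1061 genes were higher and 545 lower, 4 members and 39 companion genes higher. Deviations of same-numbered libraries from their group means correlated at 0.0731, -0.0124 and -0.188, so the numbers were not taken to pair the mice. The calls of Il1rl1, Traf3ip2, Cbfb and Runx1 were not kept under the block. Among the named companion genes, robust estimation also lost Il1rl1 and no filter lost Traf3ip2 and Runx1, and over all companion genes these settings called 33 and 35 higher. Of 25 named companion genes called, 14 were called with any 1 library left out.

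Of the members, Pparg had the fewest counts, 20 to 30 per WT library.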
